A study of Mus musculus with 12 samples.

Results

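The genes described here copy DNA or admit a cell to S phase. They were 52 genes named by symbol, and all probe sets that the platform annotation assigns to exactly 1 of these symbols were used. All 52 were measured, by 113 probe sets, among 15858 genes in the table. By role they comprised 11 genes of origin licensing, 7 of origin firing, 8 of polymerases and primase, 6 of the sliding clamp and its loader, 3 of the single-strand binding protein RPA, 2 of Okazaki fragment joining, 3 of nucleotide supply, 8 G1 cyclins and their kinases and 4 E2F factors.

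The study asked how mutant IDH1, and the metabolite R-2HG that this enzyme makes, change expression in mouse marrow cells. Total RNA was hybridised to Affymetrix arrays, with 3 arrays in each of 4 groups. In all 4 groups the donor cells were C57BL6 bone marrow immortalised with HoxA9, which then received a retroviral vector carrying a green fluorescent marker and were given to irradiated mice. GFP-positive cells were sorted from recipient marrow after 4 weeks.

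The IDH1mut cells carried pSF91-IDH1mut-IRES-GFP. The R-2HG cells carried the empty vector, and their recipients received 1 mg of R-2HG daily over 4 weeks. The IDH1wt cells carried pSF91-IDH1wt-IRES-EGFP, and the control cells carried the empty vector in untreated recipients. For the R-2HG samples 1 label field, the description, speaks of the IDH1mut vector. Every other field that names their vector, and the design text of the series, gives empty vector, and they are treated as such. The control thus shares HoxA9 and the vector with every other group, and nothing here compares with unmodified marrow. Whether the arrays of a group came from separate mice is not given in the labels, so the p-values reflect how far these arrays scatter, and that scatter may be technical.

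Eukaryotic replication starts with licensing, when the origin recognition complex (Orc genes), Cdc6 and Cdt1 load the Mcm helicase onto DNA in G1. Origins fire when the kinase Cdc7 with its activator Dbf4, together with cyclin-dependent kinases, recruits Cdc45, the GINS complex and Mcm10 to that helicase. Primase, the replicative polymerases and the clamp Pcna then take part in copying the strands. Entry into S phase is set upstream, where cyclin D with Cdk4 or Cdk6 and then cyclin E with Cdk2 release E2F factors, whose known targets include many of the replication genes. In haematopoietic cells this programme runs in dividing progenitors and is shut down as granulocytes mature.

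The E2F recognition sequence is the element that these genes are best known to share, so the windows from 250 bases before to 50 bases after the annotated start were searched (RefSeq, GRCm38.p6). A window was held for 43 of the 52 genes. Of these, 9 had several windows, and a gene was counted once, with a match in any of its windows. The E2F letters searched were TTTGGCGC, TTTCGCGC, TTTGGCGG, TTTCCCGC and TTCCCGCC on both strands, of which several can overlap. At least 1 of them was found in 22 of the 43 genes (51.2%), against 5.81% of 17492 protein-coding genes and 4.51% of all 27025 genes with a window. By role, a match was present in 7 of 10 licensing genes, 5 of 6 of polymerases and primase, 2 of 5 of firing, 2 of 5 of the clamp and its loader and 1 of 5 of G1 cyclins and kinases. The stretches below, with the E2F letters in capitals, come from genes of different roles that are described with their values further on. In Mcm5 and Mcm6 the capitals hold an overlapping pair of matches on opposite strands.
Mcm5, a helicase subunit, chr8:75109341-75109382, plus strand: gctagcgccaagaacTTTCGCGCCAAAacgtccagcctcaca
Mcm6, a helicase subunit, chr1:128359735-128359830, minus strand: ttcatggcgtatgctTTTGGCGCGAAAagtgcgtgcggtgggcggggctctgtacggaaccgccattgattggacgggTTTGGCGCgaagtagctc
Prim1, the catalytic primase subunit, chr10:128015175-128015214, plus strand: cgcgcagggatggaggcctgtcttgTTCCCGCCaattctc
Gins3, a GINS subunit, chr8:95633502-95633541, plus strand: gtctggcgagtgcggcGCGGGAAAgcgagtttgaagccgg
Rfc3, a clamp loader subunit, chr5:151651209-151651248, minus strand: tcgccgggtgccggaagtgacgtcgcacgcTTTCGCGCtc
Rrm1, the large subunit of ribonucleotide reductase, chr7:102441612-102441651, plus strand: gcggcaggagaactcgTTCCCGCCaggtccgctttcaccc
Cdk2, the kinase of cyclin E, chr10:128705168-128705207, minus strand: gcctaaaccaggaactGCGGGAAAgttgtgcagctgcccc

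All of these stretches lie upstream of the annotated start of their gene. The E-box CACGTG, the letters bound by MYC with MAX, was found in 8 of the 43 genes (18.6%), against 8.09% of all genes with a window. The window of Cdk4 held 4 of them, a number reached or passed by 6 of the 27025 genes. They are in capitals here, because Cdk4 had the lowest adjusted p of the 52 genes in R-2HG.
Cdk4, the kinase of cyclin D, chr10:127063355-127063534, plus strand: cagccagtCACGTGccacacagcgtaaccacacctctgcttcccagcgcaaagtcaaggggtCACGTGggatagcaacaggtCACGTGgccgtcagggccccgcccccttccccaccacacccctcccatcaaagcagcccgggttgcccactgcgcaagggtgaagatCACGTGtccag

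The deposited values are log2 intensities centred on each probe set, so 0 is close to the middle of the arrays and not an absence of RNA. No absolute level can be read from them. Levels therefore cannot be compared between genes, and the presence of the defining markers of the sorted cells cannot be checked, only their differences between groups. A gene's value is the mean of its probe sets, and a gene was called where limma's moderated test gave an adjusted p under 0.05 (Benjamini-Hochberg over all 15858 genes). Changes are given as log2 fold changes with their SE, n = 3 arrays per group. Because each array reads a mixture of cells, fewer cells of a type and less RNA per cell cannot be told apart.

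R-2HG was the group that stood apart. Against empty vector 32 of the 52 genes were lower and 5 higher, beside 24.3% lower and 16.5% higher among all genes. The median change was -0.36 over the 52 genes and 0.00 over all genes. With IDH1mut 10 were lower and 4 higher, beside 12.1% lower and 10.5% higher among all genes, and the median was -0.11 against -0.05 over all genes. Under IDH1wt none of the 52 was called (limma, beside 1.35% of all genes called in either direction), and the median was 0.00. An unadjusted limma p under 0.05 was found for 3 of the 52 in IDH1wt, beside 2573 of all 15858 genes. It was found for 29 in IDH1mut, beside 5547 of all genes, and for 39 in R-2HG, beside 7919. An F test over the 4 groups called 43 of the 52, beside 54.6% of all genes.

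**Figure D1:**
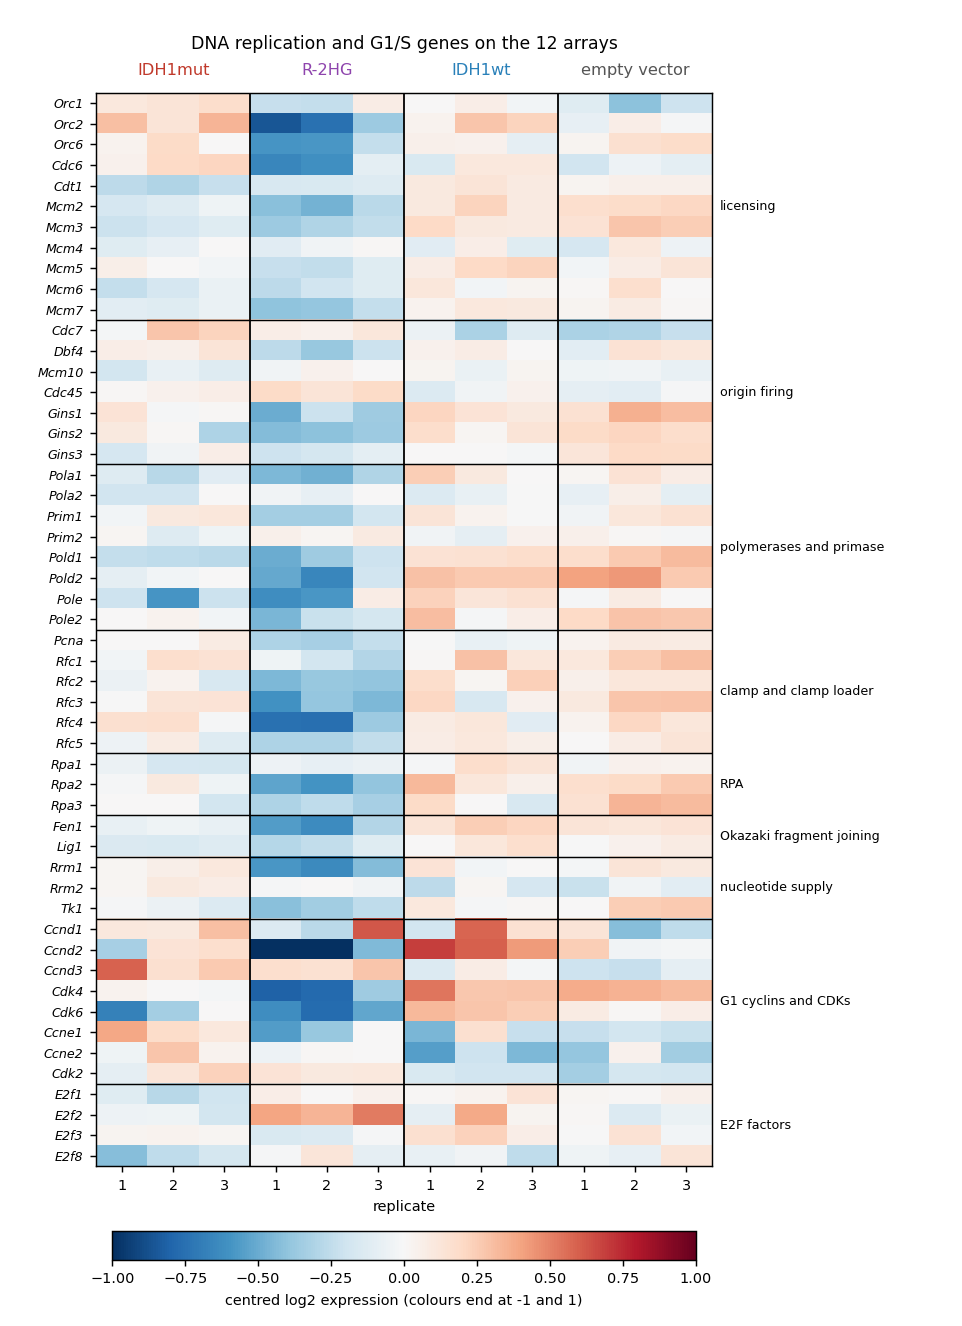
Centred log2 expression of the 52 genes (rows, by role) on the 12 arrays (columns, replicates 1 to 3 of IDH1mut, R-2HG, IDH1wt and empty vector); blue is below and red above the centre. The 3 R-2HG columns are blue for most rows of the replication machinery, and the third is paler than the other two in most of them.

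The median over the 52 genes was -0.31, -0.28 and -0.18 on R-2HG replicates 1 to 3, against 0.02, 0.09 and 0.08 on the empty vector arrays. It was -0.03, 0.00 and -0.01 with IDH1mut and 0.06, 0.09 and 0.05 with IDH1wt. The R-2HG arrays thus lay below all 9 others, and those of IDH1mut lay just under those of IDH1wt and empty vector. Gene by gene, all 3 R-2HG arrays were below all 3 empty vector arrays for 33 of the 52 genes, beside 29.8% of all genes. For IDH1mut this held for 25, beside 23.7% of all genes.

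Licensing genes were mostly lower with R-2HG, 8 of 11 (72.7%) with none higher, beside 24.3% lower and 16.5% higher among all genes. Orc2, a subunit of the origin recognition complex, had 0.30, 0.13 and 0.34 in IDH1mut, -0.86, -0.75 and -0.36 in R-2HG and 0.03, 0.28 and 0.22 in IDH1wt, against -0.08, 0.06 and -0.01 in empty vector. R-2HG was below every other array, and the IDH1mut arrays were above all those of empty vector. The change was 0.27 ± 0.12 in IDH1mut (adjusted p = 0.135, limma with Benjamini-Hochberg adjustment) and -0.65 ± 0.12 in R-2HG (adjusted p = 0.00148), and IDH1mut was 0.91 ± 0.12 above R-2HG (adjusted p = 0.000756).

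Orc6, another subunit of that complex, had 0.03, 0.19 and 0.00 in IDH1mut and -0.59, -0.59 and -0.24 in R-2HG, against 0.03, 0.16 and 0.18 in empty vector. IDH1mut overlapped empty vector and R-2HG did not (-0.59 ± 0.10, adjusted p = 0.000869). Of the helicase genes, Mcm2 and Mcm3 were lower in both groups. Mcm2 had -0.17, -0.13 and -0.05 in IDH1mut and -0.42, -0.48 and -0.27 in R-2HG, against 0.17, 0.19 and 0.20 in empty vector. The groups did not overlap, and R-2HG lay lowest. The change was -0.30 ± 0.07 in IDH1mut (adjusted p = 0.0115) and -0.57 ± 0.07 in R-2HG (adjusted p = 0.000182), and the difference between them, IDH1mut minus R-2HG, was 0.27 ± 0.07 (adjusted p = 0.0146).

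Mcm3 had -0.21, -0.17 and -0.12 in IDH1mut and -0.36, -0.30 and -0.25 in R-2HG, against 0.14, 0.27 and 0.25 in empty vector. Neither group overlapped empty vector. The change was -0.39 ± 0.07 in IDH1mut (adjusted p = 0.00166) and -0.52 ± 0.07 in R-2HG (adjusted p = 0.000193), and the difference of 0.14 ± 0.07, IDH1mut minus R-2HG, was not called (adjusted p = 0.132). Its 5 probe sets disagreed on that difference, with values between -0.18 (adjusted p = 0.0784) and 0.41 (adjusted p = 0.00469). Of the other helicase subunits Mcm5 (-0.26), Mcm6 (-0.25) and Mcm7 (-0.38 ± 0.07) fell with R-2HG, and Mcm4 was called in no comparison. Mcm5 and Mcm6 carry the E2F letters shown above, whereas Mcm2 holds none in its window. The arrays of Cdt1, the loader of the helicase, had -0.26, -0.30 and -0.23 in IDH1mut and -0.16, -0.15 and -0.13 in R-2HG, against 0.02, 0.05 and 0.05 in empty vector. The change was -0.31 ± 0.06 in IDH1mut (adjusted p = 0.00245) and -0.19 ± 0.06 in R-2HG (adjusted p = 0.02), and the difference between IDH1mut and R-2HG was not called. Cdc6, its partner, was not called against empty vector in either group but was 0.61 ± 0.13 higher in IDH1mut than in R-2HG (adjusted p = 0.00625).

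Firing genes had 4 lower (57.1%) and 2 higher (28.6%) of 7 with R-2HG, beside 24.3% lower and 16.5% higher among all genes. Gins1 and Gins2, which encode GINS subunits, were lower, with changes of -0.63 ± 0.09 and -0.60 ± 0.10. The arrays of Gins1 had -0.50, -0.21 and -0.35 in R-2HG, against 0.15, 0.35 and 0.31 in empty vector, and those of Gins2 had -0.44, -0.41 and -0.36 against 0.19, 0.22 and 0.18. Neither gene's groups overlapped. Gins3 (-0.33 ± 0.07) fell as well.

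The kinase Cdc7 and its activator Dbf4 went opposite ways in R-2HG. Cdc7 had -0.02, 0.28 and 0.23 in IDH1mut and 0.07, 0.04 and 0.12 in R-2HG, against -0.32, -0.30 and -0.23 in empty vector. It rose by 0.44 ± 0.09 in IDH1mut (adjusted p = 0.00446) and by 0.36 ± 0.09 in R-2HG (adjusted p = 0.00863), and neither group overlapped empty vector. Dbf4 had 0.07, 0.05 and 0.13 in IDH1mut and -0.26, -0.38 and -0.22 in R-2HG, against -0.11, 0.14 and 0.11 in empty vector. IDH1mut lay within the range of empty vector, and R-2HG lay below it (-0.33 ± 0.08, adjusted p = 0.00549). Cdc45, the helicase cofactor, was higher with R-2HG (0.24 ± 0.07, adjusted p = 0.0132), and Mcm10 was not called.

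Polymerases and primase gave 5 lower (62.5%) and none higher of 8 with R-2HG, and 3 lower (37.5%) with IDH1mut. Among all genes 24.3% were lower with R-2HG and 12.1% with IDH1mut. The subunits of polymerase delta, which copies the lagging strand, were lower in both groups. Pold1, its catalytic subunit, had -0.24, -0.25 and -0.27 in IDH1mut and -0.49, -0.36 and -0.20 in R-2HG, against 0.15, 0.15 and 0.17 in IDH1wt and 0.17, 0.27 and 0.31 in empty vector. IDH1mut and R-2HG overlapped each other and neither overlapped IDH1wt or empty vector. The 2 probe sets of Pold1 placed IDH1mut and R-2HG in opposite order. On 1 of them IDH1mut had -0.47, -0.49 and -0.53, and R-2HG -0.47, -0.23 and -0.18. On the other IDH1mut had 0.00, -0.02 and -0.01, and R-2HG -0.52, -0.49 and -0.22. Pold1 had the lowest adjusted p of the 52 genes in IDH1mut (-0.51 ± 0.08, adjusted p = 0.00073). It changed by -0.60 ± 0.08 in R-2HG, and in IDH1mut against IDH1wt it changed by -0.41 ± 0.08 (adjusted p = 0.00427).

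Pold2, the accessory subunit, had -0.09, -0.03 and 0.00 in IDH1mut and -0.51, -0.65 and -0.19 in R-2HG, against 0.40, 0.43 and 0.26 in empty vector. The 3 groups did not overlap. It changed by -0.40 ± 0.10 in IDH1mut (adjusted p = 0.0143) and -0.81 ± 0.10 in R-2HG (adjusted p = 0.000171), and IDH1mut was 0.41 ± 0.10 above R-2HG (adjusted p = 0.0106). Pola1, the catalytic subunit of the polymerase that extends primers, was lower in R-2HG (-0.49 ± 0.08) and, with an adjusted p of 0.0493, in IDH1mut (-0.25 ± 0.08). The primase gene Prim1 fell in R-2HG (-0.36 ± 0.08), and IDH1mut was 0.35 ± 0.08 above R-2HG (adjusted p = 0.00723). Pole2, a subunit of polymerase epsilon, changed by -0.54 ± 0.09 in R-2HG, and Pola2, Prim2 and the epsilon catalytic subunit Pole were called in no comparison.

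**Figure D2:**
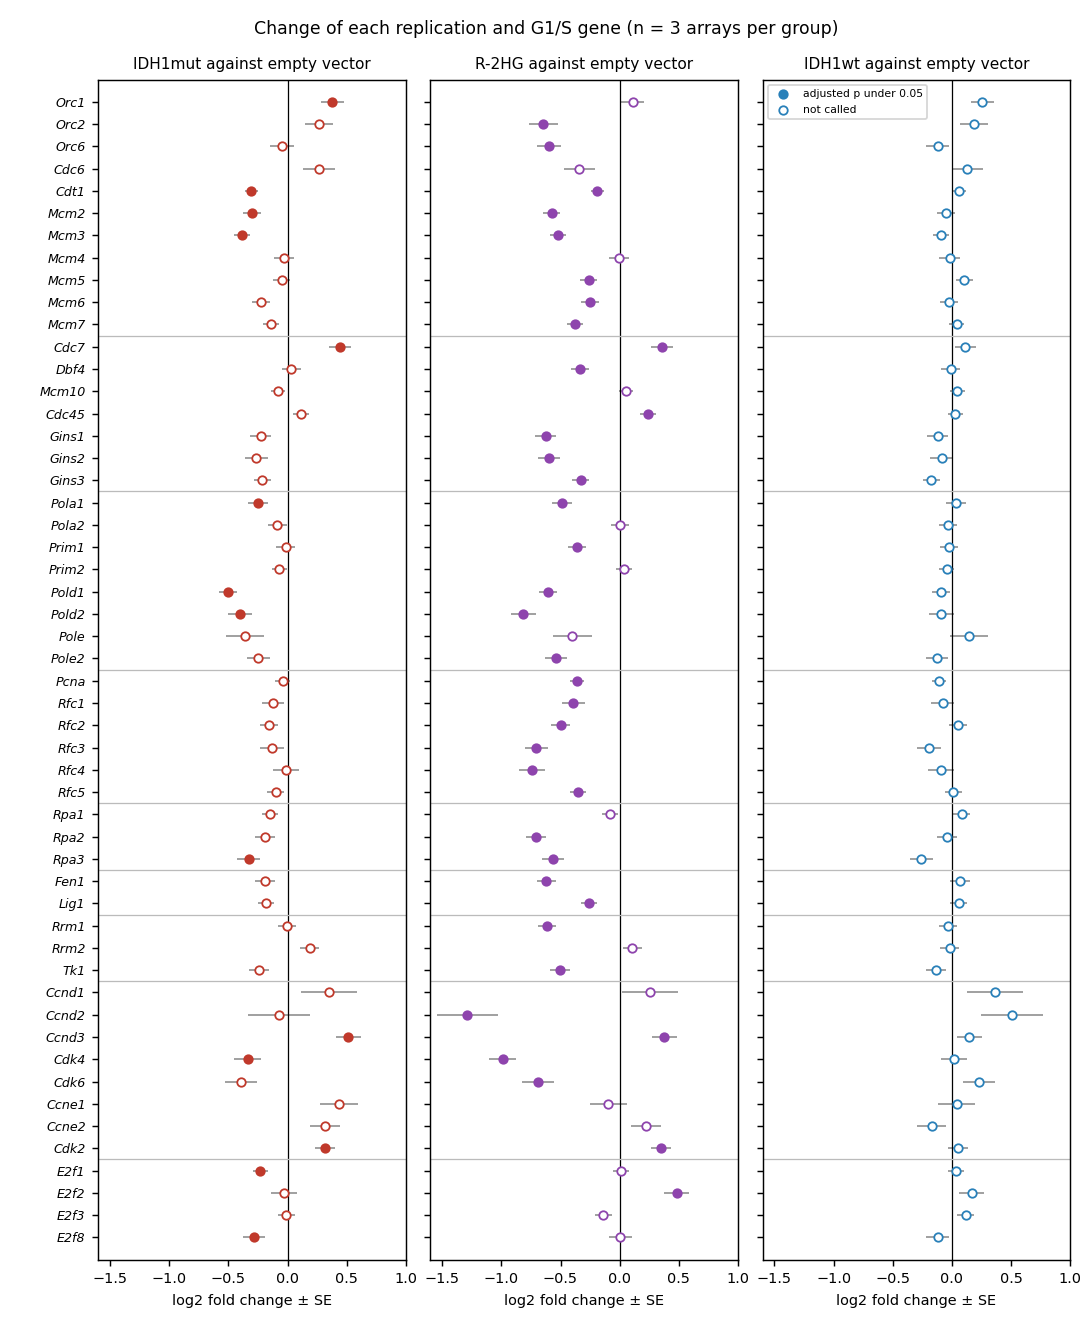
Log2 fold change of each gene with its SE, by role, for IDH1mut, R-2HG and IDH1wt, each against the same 3 empty vector arrays (n = 3 arrays per group); filled circles have an adjusted p under 0.05. Most R-2HG circles of the machinery are filled and left of 0, whereas in IDH1wt no circle is filled.

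All 6 genes of the clamp and its loader fell with R-2HG, beside 24.3% of all genes. None of the 6 was called with IDH1mut against empty vector. Pcna, the sliding clamp, had 0.00, 0.00 and 0.08 in IDH1mut and -0.31, -0.33 and -0.24 in R-2HG, against 0.04, 0.09 and 0.08 in empty vector. IDH1mut overlapped empty vector, and R-2HG was lower (-0.36 ± 0.06, adjusted p = 0.000868). IDH1mut stood 0.32 ± 0.06 above R-2HG (adjusted p = 0.00348). The loader subunit Rfc4 had 0.16, 0.17 and -0.01 in IDH1mut and -0.74, -0.76 and -0.37 in R-2HG, against 0.04, 0.20 and 0.12 in empty vector. R-2HG was below all other arrays. Rfc4 changed by -0.74 ± 0.11 in R-2HG (adjusted p = 0.000414), and Rfc3 changed by -0.70 ± 0.10. Rfc1, Rfc2 and Rfc5 changed by -0.39, -0.50 and -0.35.

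Among RPA genes, Rpa2, the middle subunit, had -0.53, -0.60 and -0.39 in R-2HG, against 0.16, 0.19 and 0.26 in empty vector (-0.71 ± 0.09, adjusted p = 0.000138). These groups did not overlap. Rpa3, the small subunit, was lower in IDH1mut (-0.33 ± 0.10, adjusted p = 0.0265) and in R-2HG (-0.57 ± 0.10, adjusted p = 0.000823). Rpa3 is also the gene with the lowest IDH1wt value, -0.26 with a 95% interval of -0.47 to -0.05, which was not called (adjusted p = 0.206). Rpa1, the large subunit, was not called against empty vector.

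Both genes of Okazaki fragment joining fell with R-2HG. The flap nuclease Fen1 had -0.07, -0.04 and -0.07 in IDH1mut and -0.55, -0.63 and -0.30 in R-2HG, against 0.13, 0.11 and 0.14 in empty vector. All arrays of both groups lay below those of empty vector, but the change was called in R-2HG (-0.62 ± 0.08, adjusted p = 0.000233) and not in IDH1mut (-0.19 ± 0.08, adjusted p = 0.125). The ligase Lig1 changed by -0.26 ± 0.07 in R-2HG (adjusted p = 0.0119).

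Of the genes of nucleotide supply, the large and small subunits of ribonucleotide reductase differed in R-2HG. Rrm1 had -0.58, -0.64 and -0.43 in R-2HG, against -0.02, 0.13 and 0.09 in empty vector, whereas Rrm2, the small subunit, had -0.02, 0.01 and -0.04, against -0.22, -0.04 and -0.11. Rrm1 was below all 9 other arrays on every R-2HG array, with a change of -0.62 ± 0.08 (adjusted p = 0.000177), and Rrm2 was called in no comparison. IDH1mut was 0.61 ± 0.08 above R-2HG for Rrm1 (adjusted p = 0.000695). The thymidine kinase Tk1 fell in R-2HG (-0.51 ± 0.08, adjusted p = 0.000747), and its value in IDH1mut, -0.24 ± 0.08, was not called (adjusted p = 0.0608).

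**Figure D3:**
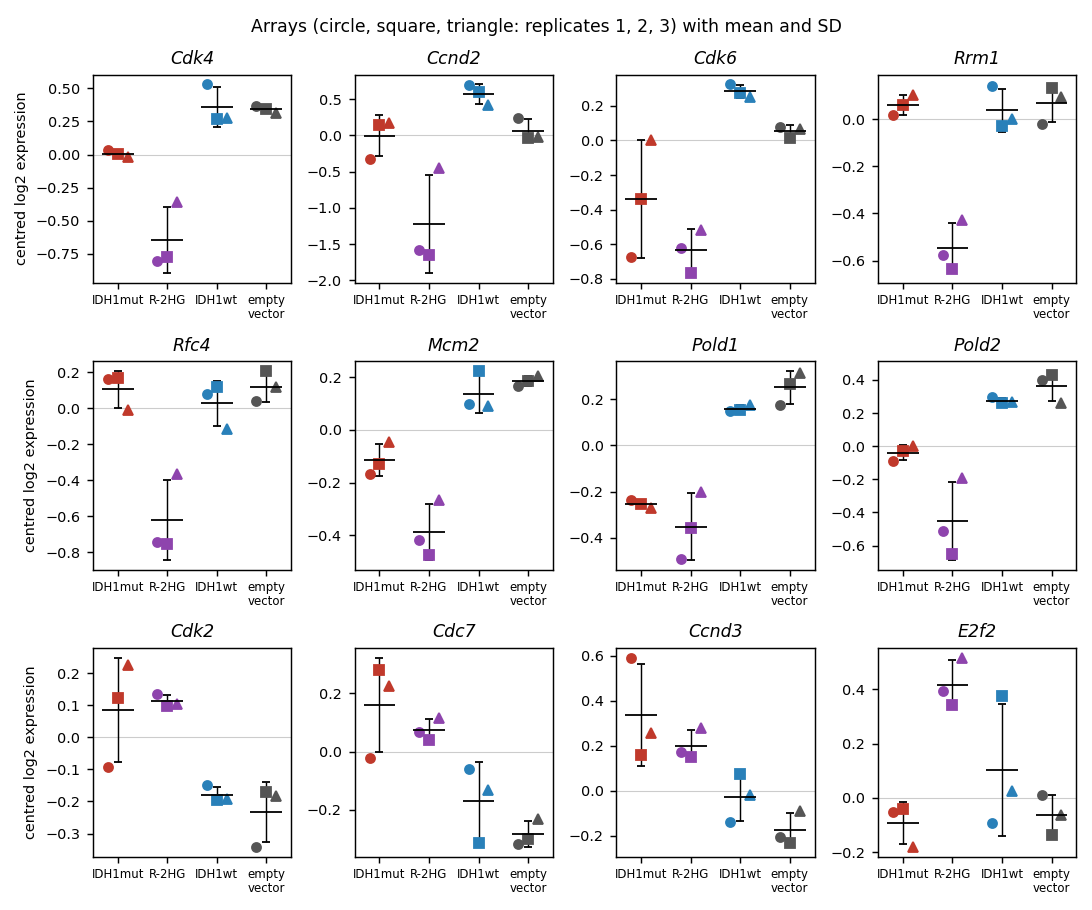
Centred log2 expression of 12 genes on each array (circle, square and triangle for replicates 1, 2 and 3), with the group mean and SD (n = 3), from left to right for IDH1mut, R-2HG, IDH1wt and empty vector. For Cdk4, Rrm1, Rfc4 and Pold2 all 3 R-2HG arrays lie below all others; Cdc7, Ccnd3 and Cdk2 lie above empty vector in IDH1mut and R-2HG alike.

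G1 cyclins and their kinases had 3 lower (37.5%) and 2 higher (25%) of 8 with R-2HG, beside 24.3% lower and 16.5% higher among all genes. In R-2HG the cyclin D2 gene Ccnd2 and the kinases Cdk4 and Cdk6 fell, and cyclin D3 (Ccnd3) and Cdk2 rose. Cdk4 had 0.04, 0.00 and -0.02 in IDH1mut and -0.80, -0.78 and -0.36 in R-2HG, against 0.53, 0.27 and 0.28 in IDH1wt and 0.37, 0.35 and 0.31 in empty vector. The 3 levels formed non-overlapping steps, R-2HG lowest, IDH1mut between, and IDH1wt with empty vector highest. The R-2HG change was -0.99 ± 0.11, or 1.99-fold lower (adjusted p = 0.000109), and all 3 probe sets were called. The IDH1mut change was -0.34 ± 0.11 with an adjusted p of 0.0486, and IDH1mut was 0.65 ± 0.11 above R-2HG (adjusted p = 0.00224).

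Ccnd2 had -0.33, 0.14 and 0.17 in IDH1mut, -1.58, -1.65 and -0.44 in R-2HG and 0.69, 0.60 and 0.42 in IDH1wt, against 0.25, -0.04 and -0.02 in empty vector. Replicate 3 of R-2HG was far above the other R-2HG arrays and close to replicate 1 of IDH1mut. The change was -1.29 ± 0.26, or 2.44-fold lower (adjusted p = 0.00243), the largest of the 52 genes in size, and 6 of its 7 probe sets were called lower. With R-2HG replicates 1 and 2 left out the call was lost (-0.51, adjusted p = 0.125).

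Cdk6 had -0.68, -0.34 and 0.00 in IDH1mut and -0.62, -0.77 and -0.52 in R-2HG, against 0.33, 0.28 and 0.25 in IDH1wt and 0.08, 0.01 and 0.07 in empty vector. It was lower in R-2HG (-0.69 ± 0.13, adjusted p = 0.0019). In IDH1mut, whose arrays spread widely, the value of -0.39 ± 0.13 against empty vector was not called (adjusted p = 0.0544), while that against IDH1wt, -0.62 ± 0.13, was (adjusted p = 0.00884).

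Ccnd3 and Cdk2 rose in both groups. Ccnd3 had 0.59, 0.16 and 0.26 in IDH1mut and 0.17, 0.15 and 0.28 in R-2HG, against -0.20, -0.23 and -0.09 in empty vector, and changed by 0.51 ± 0.11 in IDH1mut (adjusted p = 0.00472) and 0.38 ± 0.11 in R-2HG (adjusted p = 0.0145). Cdk2 had -0.09, 0.12 and 0.23 in IDH1mut and 0.14, 0.10 and 0.10 in R-2HG, against -0.34, -0.17 and -0.18 in empty vector. Its change was 0.32 ± 0.08 in IDH1mut (adjusted p = 0.0176) and 0.35 ± 0.08 in R-2HG (adjusted p = 0.00692). Cyclin E1 (Ccne1), the partner of Cdk2, was not called against empty vector in either group, but was 0.53 ± 0.16 higher in IDH1mut than in R-2HG (adjusted p = 0.0229). Cyclin E2 (Ccne2) was 0.49 ± 0.13 higher in IDH1mut than in IDH1wt (adjusted p = 0.0218). Ccnd1 was called in no comparison.

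Of the 4 E2F factors, E2f2, an activating member, rose with R-2HG and the others were not called. It had 0.39, 0.34 and 0.52 in R-2HG, against 0.01, -0.14 and -0.06 in empty vector (0.48 ± 0.11, adjusted p = 0.00459). With IDH1mut, E2f1, another activating member, had -0.13, -0.28 and -0.20, against 0.02, 0.01 and 0.05 in empty vector, and fell by 0.23 on the log2 scale (SE 0.07, adjusted p = 0.0248). E2f8, a repressing member, was lower with IDH1mut (-0.29 ± 0.09, adjusted p = 0.0476). Neither E2f1 nor E2f8 was called with R-2HG, and IDH1mut lay below R-2HG for E2f1 (-0.24 ± 0.07, adjusted p = 0.0159), E2f2 (-0.51 ± 0.11, adjusted p = 0.00534) and E2f8 (-0.29 ± 0.09, adjusted p = 0.0319).

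IDH1mut and R-2HG were each compared with the same 3 empty vector arrays, so their values are set side by side with no test of likeness. Cdt1, Mcm2, Mcm3, Pola1, Pold1, Pold2, Rpa3 and Cdk4 were lower in both, and Cdc7, Ccnd3 and Cdk2 were higher in both. No gene was called in opposite directions. The 24 other genes that fell with R-2HG were not called with IDH1mut. Called with IDH1mut alone were Orc1, E2f1 and E2f8, of which Orc1, the large subunit of the origin recognition complex, was higher (0.38 ± 0.10, adjusted p = 0.0146). The direct comparison of IDH1mut with R-2HG called 27 of the 52 genes higher and 3 lower in IDH1mut, beside 20.3% higher and 15.8% lower among all genes, with a median of 0.24. Of these 30 calls, 28 were lost in at least 1 of 20 alternative settings. Among genes named above, that of Mcm2 was lost without R-2HG replicate 1 or 2 (adjusted p up to 0.0669), and that of Ccne1 without IDH1mut replicate 1 or R-2HG replicate 1 or 2 (up to 0.0949). Those of E2f1 and E2f8 were lost without IDH1mut replicate 2 or R-2HG replicate 1 (up to 0.0604 and 0.125), and that of E2f8 also without IDH1mut replicate 1 or R-2HG replicate 2.

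Against IDH1wt, the vector control that carries the normal enzyme, IDH1mut had 9 genes lower and 3 higher, beside 7.29% lower and 8.37% higher among all genes, with a median of -0.11. The lower genes were Cdt1, Mcm2, Mcm3, Pola1, Pold1, Rpa1, Lig1, Cdk6 and E2f1, and the higher ones Cdc7, Ccnd3 and Ccne2. Most of these calls were close to the threshold, and 3 of the 12 (Cdt1, Mcm3 and Cdk6) were kept in all 20 alternative settings. Without any 1 of 9 arrays the call of Rpa1 was lost (adjusted p up to 0.125), without any 1 of 8 those of Mcm2 and Lig1 (up to 0.114 and 0.134), without any 1 of 7 that of Pola1 (up to 0.135) and without any 1 of 6 that of Ccnd3 (up to 0.124). Cdc7 lost its call without IDH1mut replicate 2 or 3 or IDH1wt replicate 2 or 3 (up to 0.111), Ccne2 without IDH1mut replicate 2 or IDH1wt replicate 1 or 3 (up to 0.0875) and E2f1 without IDH1mut replicate 2 or IDH1wt replicate 3 (up to 0.0738). Cdt1 changed most clearly by its adjusted p (-0.37 ± 0.06, adjusted p = 0.00144), with arrays at -0.26, -0.30 and -0.23 in IDH1mut against 0.10, 0.13 and 0.09 in IDH1wt. IDH1wt itself, against empty vector, had values between -0.26 for Rpa3 and 0.51 for Ccnd2 (95% interval -0.06 to 1.08, adjusted p = 0.364). These intervals bound the differences, and do not show that IDH1wt and empty vector were alike.

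Genes with and without E2F letters in their window fell with R-2HG. Of the 22 genes with a match, 14 were lower and 3 higher with R-2HG, with a median of -0.30. Of the 21 genes whose window held none, 14 were lower and 2 higher, with a median of -0.39. With IDH1mut the counts were 4 lower and 3 higher with a match, and 6 lower and 1 higher without. No match says only that these letters are not in the window searched.

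Of the 113 probe sets, 67 were lower and 8 higher with R-2HG, and 8 of the 38 genes with several probe sets held both signs. Both signs were found in 13 of the 38 genes for IDH1mut and 20 for IDH1wt against empty vector, 14 for IDH1mut against IDH1wt and 16 for IDH1mut against R-2HG. In that last comparison Cdc45 and Prim2 had probe sets called in opposite directions. Disagreements bear on some values above. Cdc45 rose with R-2HG by 1 probe set (0.41, adjusted p = 0.00413) and not by the other (0.07), and Orc1 rose with IDH1mut by 1 probe set (0.55) while the other (0.21) was not called. Prim2, not called as a gene, had 1 probe set lower (-0.40, adjusted p = 0.00243) and 1 higher (0.41, adjusted p = 0.0234) with R-2HG. Of the 3 E2f1 probe sets, 1 had 0.13 in IDH1mut, opposite in sign to the others at -0.43 and -0.38, and neither probe set of E2f8 was called alone. The fall of Rfc1 with R-2HG was uneven. In 1 probe set the arrays had 0.00, -0.40 and -0.57, against 0.47, 0.52 and 0.69 in empty vector. Another had 0.00, -0.06 and -0.23, which overlapped empty vector at -0.15, 0.03 and 0.06. For Ccnd3, IDH1mut replicate 1 read 1.68 on 1 probe set and 0.06 and 0.03 on the others. The rise of Cdc7 with IDH1mut was uneven too. In 1 probe set the IDH1mut arrays had 0.10, 0.27 and 0.47, against -0.42, -0.41 and -0.46 in empty vector. The other had -0.14, 0.29 and -0.02, which overlapped empty vector at -0.21, -0.19 and -0.0025. With R-2HG all arrays lay above empty vector on both Cdc7 probe sets.

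**Figure D4:**
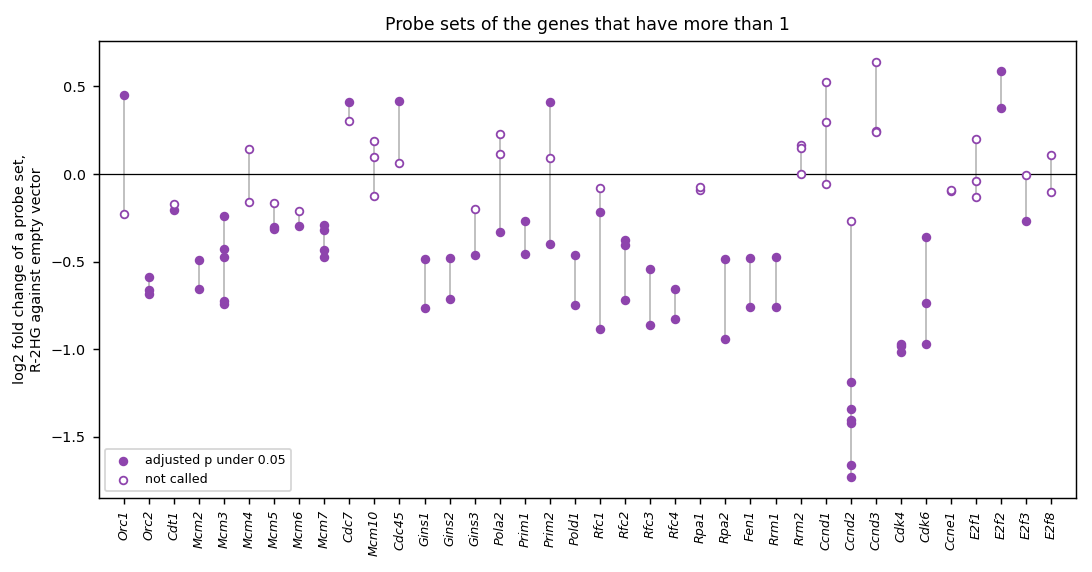
Log2 fold change of each probe set, R-2HG against empty vector, for the 38 genes with more than 1 probe set; filled circles have an adjusted p under 0.05. In 8 of the 38 genes the probe sets lie on both sides of 0, and Prim2 has a filled circle on each side.

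Genes of the pathway outside the 52 were read from lists chosen by function. Their counts stand beside 24.3% lower and 16.5% higher among all genes with R-2HG, and 12.1% lower and 10.5% higher with IDH1mut. Other replication genes had 20 lower and 2 higher of 39 with R-2HG (median -0.23), led by the RNase H2 subunits Rnaseh2a (-0.86 ± 0.08) and Rnaseh2b (-0.84 ± 0.08) and by Dut, which keeps uracil out of DNA (-0.67 ± 0.06). With IDH1mut the same list had 7 lower and 6 higher, with Dck, a nucleoside salvage kinase, at 0.60 ± 0.08 and Dnmt1, the maintenance DNA methyltransferase, at -0.47 ± 0.06. Other G1/S regulators had 8 lower (34.8%) and 1 higher (4.35%) of 23 with R-2HG (median -0.16). Cks1b, a small partner of cyclin-dependent kinases, was at -0.63 ± 0.07. Genes of mitosis and G2/M had 16 lower and none higher of 37 (median -0.30), among them the checkpoint gene Mad2l1 (-0.46 ± 0.08), against 1 lower and 1 higher with IDH1mut. In promoters, this mitotic list carried the cell-cycle homology letters TTTGAA or TTCGAA in 25 of 31 genes with a window (80.6%). The share was 27.9% for the 52 genes and 21.7% for all genes, again of those with a window.

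Genes of MYC function and ribosome biogenesis had 31 lower and 1 higher of 37 with R-2HG, with a median of -0.58, and 8 lower and 3 higher with IDH1mut. Myc itself changed by -1.16 ± 0.13 in R-2HG (adjusted p = 9.1e-05). Of 7 genes of CDK inhibitors, 2 (28.6%) were lower and 1 (14.3%) higher in R-2HG as in IDH1mut. Among all genes 24.3% were lower and 16.5% higher in R-2HG, and 12.1% lower and 10.5% higher in IDH1mut. Cdkn2a, which encodes the Cdk4 and Cdk6 inhibitor p16 and the p53 activator p19, changed by -2.37 ± 0.21 in IDH1mut (adjusted p = 2.55e-05) and -1.38 ± 0.21 in R-2HG (adjusted p = 0.00043). Cdkn2c, an inhibitor of the same kinases, was lower in IDH1mut (-0.53 ± 0.10), R-2HG (-0.33 ± 0.10) and IDH1wt (-0.49 ± 0.10). Cdkn1b, which encodes the Cdk2 inhibitor p27, was higher in IDH1mut (0.40 ± 0.10).

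**Figure D5:**
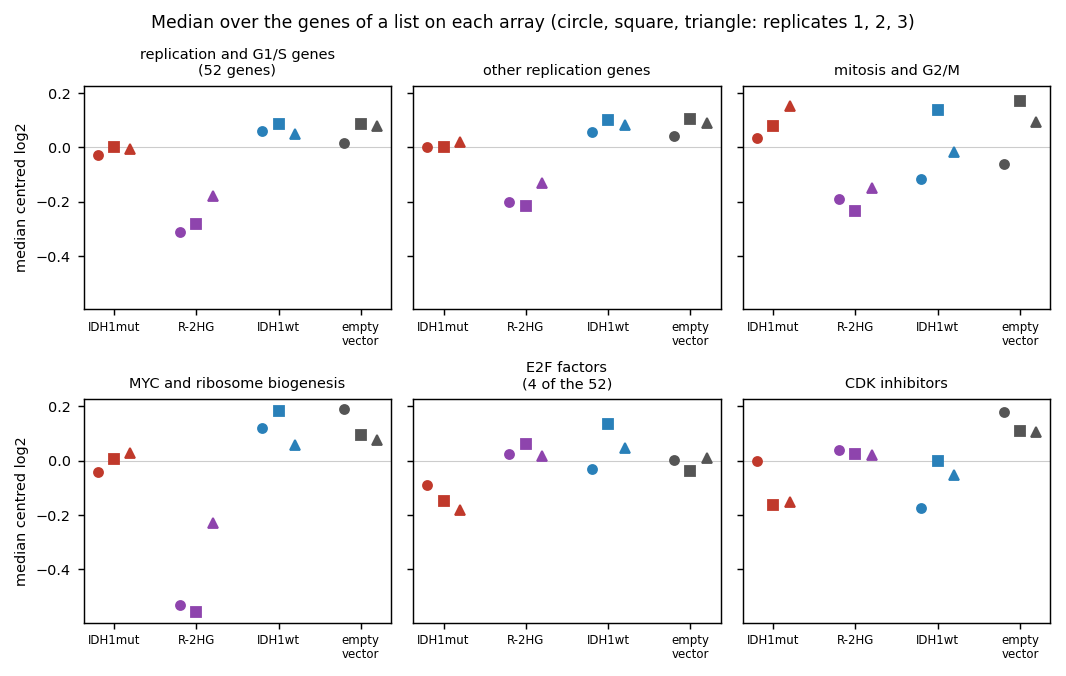
Median centred log2 expression over the genes of a list on each array (circle, square and triangle for replicates 1, 2 and 3), from left to right for IDH1mut, R-2HG, IDH1wt and empty vector. The 52 genes, the other replication genes and the MYC list are lowest on the 3 R-2HG arrays, whereas the E2F factors are lowest on the 3 IDH1mut arrays.

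The R-2HG arrays differed among themselves, and markers of other cells moved with this. Of the 32 genes that fell with R-2HG, replicate 3 lay above both other R-2HG arrays for 27, between them for 3 and below them for 2, and it was below all empty vector arrays for all 32. All 3 R-2HG arrays were below all 9 other arrays for 26 of them, a count for which the share over all genes was not determined. These 32 genes were picked by their call against the same empty vector arrays, so such counts follow in part from that choice. On R-2HG replicates 1, 2 and 3 the median over 12 markers of mast cells, basophils and eosinophils was -1.77, -1.90 and 0.19, against 0.07 to 0.13 in empty vector, and that over 14 dendritic cell markers was -0.99, -1.11 and 0.34, against 0.01 to 0.22. Of the mast cell list 6 of 12 were lower and none higher, with Cpa3, a mast cell protease, at -4.35 ± 1.30 and Prg2, an eosinophil granule protein, at -4.01 ± 0.79. Erythroid markers were at 0.17, 0.44 and 0.33 in IDH1mut and -1.29, -1.85 and 0.00 in R-2HG, against -0.87 to -0.80 in empty vector. The IDH1wt arrays were at -0.95, 0.28 and -0.16, and no erythroid gene was called in IDH1mut against IDH1wt. Of these 13 genes 4 were higher with IDH1mut and 1 with R-2HG against empty vector, none being lower in either. All 3 IDH1mut arrays lay above all of empty vector for 12 of them, beside 2768 of all 15858 genes. B cell markers were at 0.55, 0.36 and 1.27 in IDH1mut and -0.51, -0.43 and -0.16 in R-2HG, against 0.00 to 1.15 in empty vector. Of 14 genes 3 (21.4%) were higher in IDH1mut, beside 10.5% of all genes, and 4 (28.6%) were lower in R-2HG, beside 24.3%. In IDH1mut against R-2HG, 27 of the 52 genes were higher. So were 11 of 13 erythroid and 9 of 14 B cell markers, none of these markers being lower. Myeloid progenitor markers had 6 of 12 lower and 3 higher, and T and NK cell markers 2 of 11 lower and 4 higher. Higher were 2 of 12 mast cell, basophil and eosinophil, 3 of 14 dendritic cell and 2 of 14 mature neutrophil markers, with none lower. Monocyte and macrophage markers had 1 of 13 lower and 2 higher. Among all genes 20.3% were higher and 15.8% lower in this comparison. Of 11 T and NK cell markers 2 (18.2%) were lower and 2 (18.2%) higher with R-2HG, and of 13 monocyte and macrophage markers 4 (30.8%) were lower and none higher. Among all genes 24.3% were lower and 16.5% higher with R-2HG.

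Markers of granulocyte maturation also moved, in R-2HG and in IDH1mut. The median over 14 mature neutrophil markers was 0.36, 0.35 and 0.27 in IDH1mut and 0.26, 0.24 and 0.24 in R-2HG, against -0.23 to -0.13 in empty vector, with 10 and 9 of 14 genes higher and none lower. The median over 12 myeloid progenitor markers was -0.52, -0.30 and -0.22 in IDH1mut and -0.21, -0.29 and -0.33 in R-2HG, against 0.14 to 0.26 in empty vector. In IDH1mut 9 of 12 were lower and 1 higher, and in R-2HG 10 of 12 were lower and none higher. Among them Elane, neutrophil elastase, changed by -1.10 ± 0.13 in IDH1mut and -0.43 ± 0.13 in R-2HG. Of all genes 12.1% were lower and 10.5% higher in IDH1mut, and 24.3% lower and 16.5% higher in R-2HG. The part of these other cells, and of maturation, in the values of the replication genes was not tested.

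With R-2HG replicates 1 and 2 left out, so that replicate 3 stood alone and was assumed to vary like the other groups, 16 of the 52 genes were lower and 1 higher against empty vector, with a median of -0.27. Cdk4, Mcm2, Mcm3, Gins1, Gins2, Pold1, Pold2, Pole2, Rfc1, Rfc2, Rfc3, Rfc4, Rpa2, Rpa3, Fen1, Rrm1 and E2f2 kept their R-2HG calls in all 20 alternative settings of the arrays and processing, this one included. In the comparison of IDH1mut with R-2HG this setting left 2 calls, Orc2 and Rrm1, both higher in IDH1mut. With IDH1mut against empty vector, Cdt1, Mcm2, Mcm3, Pold1, Cdc7 and Ccnd3 kept their calls in all 20 settings. A further minimum fold change of 1.5 left 0 of the 14 calls of IDH1mut and 14 of the 37 of R-2HG.

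Leaving out 1 array at a time ended some of the weaker calls. In IDH1mut against empty vector, Pola1, Cdk4 and E2f8 each lost their call without any 1 of 9 arrays (adjusted p up to 0.167, 0.118 and 0.18), E2f1 without any 1 of 5 (up to 0.096), and Cdk2 and Rpa3 each without any 1 of 3 (up to 0.0685 and 0.102). Orc1 and Pold2 lost theirs without empty vector replicate 2 (adjusted p = 0.0657 and 0.0561). The count of 14 was 9 without IDH1mut replicate 2, 8 without empty vector replicate 2 and 9 without empty vector replicate 3.

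In R-2HG against empty vector, Cdt1 lost its call without any 1 of 4 arrays (adjusted p up to 0.0656), and Mcm5 and Mcm6 each without any 1 of 3 (up to 0.0583 and 0.0892). Lig1 lost it without R-2HG replicate 1 (adjusted p = 0.0549), and Cdc45 and Ccnd3 without empty vector replicate 2 (adjusted p = 0.0502 and 0.0535). In IDH1mut against IDH1wt the count of 12 was 5 without IDH1mut replicate 2, 7 without IDH1mut replicate 3 and 5 without IDH1wt replicate 3. For IDH1mut against R-2HG the count of 30 was 18 without R-2HG replicate 1, and likewise 18 without R-2HG replicate 2.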

How the data were processed

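The authors deposited log2 expression values of 32533 probe sets on 12 arrays, made with RMA per the submitters' processing notes (version not given in the sources used here). The deposited log2 values run from -6.48 to 4.93 and are centred on each probe set, since no probe set has more than 7 of its 12 values above 0 or more than 7 below it and 83.6% hold an exact 0. Every array has a median of 0. The reference of the centring is not given in the sources used here. Arrays carry no read depth, and their number limits the precision.

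Probe sets with 1 gene symbol in the platform annotation were used (28805, against 757 with several and 2971 with none), of which 28674 had their Entrez identifier in RefSeq GRCm38.p6 and 0 symbols changed. The probe sets of a gene were averaged, which gave 15858 genes with no filter. Gene values entered a linear model in limma 3.58.1 (R 4.3.3) with lmFit and eBayes, 1 coefficient per group over all 12 arrays and 8 residual and 3.96 prior degrees of freedom. The 5 comparisons were two-sided, an F test covered the 4 groups, and p-values were adjusted over every gene by Benjamini-Hochberg, with calls at adjusted p under 0.05. Tables were handled with pandas 2.3.3 and drawn with matplotlib 3.10.9. The fit was tested on simulated data before use.

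The members and the gene lists were chosen with earlier results of these data known. All members could be named, in order of role, with values on every array for those with the widest spread of group means. Of each other list the text draws on the 4 genes with the smallest p, and of each cell type list on the median per array and up to 2 genes. Alternatives were the 6 arrays of a comparison alone, R-2HG replicates 1 and 2 left out, a filter on the SD, array weights, eBayes with trend, the probe set with the highest SD, each probe set alone, further quantile normalization, a replicate block, a minimum fold change and each array left out. Promoter windows were searched by exact letters.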

Additional observations from a re-analysis of the deposited data

How the results depend on the processing

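The direction of the median over the 52 genes held in every setting run for IDH1mut and R-2HG against empty vector and for both comparisons of IDH1mut. A minimum fold change of 1.5 left 0 called genes for IDH1mut against empty vector, 14 for R-2HG (all lower), 1 for IDH1mut against IDH1wt and 6 for IDH1mut against R-2HG. With R-2HG replicates 1 and 2 left out there were 17 calls in R-2HG (16 lower), 2 in IDH1mut against R-2HG and 22 by the F test, with medians of -0.27 and 0.13 for R-2HG and for IDH1mut against R-2HG. Array weights gave 26 calls for IDH1mut (20 lower) and 1 for IDH1wt against empty vector (Rpa3, lower). The R-2HG median was -0.50 after dropping the 30% of genes with the lowest SD and -0.29 after quantile normalization. The median of IDH1mut against R-2HG was 0.28 and 0.17 in these 2 settings, and 0.33 with the probe set of highest SD. Leaving out 1 array gave 8 to 21 calls for IDH1mut, 33 to 39 for R-2HG and 0 for IDH1wt against empty vector, 5 to 17 for IDH1mut against IDH1wt, 18 to 30 for IDH1mut against R-2HG and 37 to 44 by the F test, with medians of -0.14 to -0.09, -0.39 to -0.33, -0.02 to 0.03, -0.12 to -0.09 and 0.21 to 0.28 for the 5 comparisons in that order. The SD used to drop genes or to pick a probe set was taken over all 12 arrays, group differences included. It thus favoured genes or probe sets that differed between groups. Otherwise the cause of these shifts was not tested, beyond the fewer arrays or genes used. Among values called for the gene or for the probe set, a reading from 1 probe set alone changed sign in IDH1mut against empty vector for E2f1 (0.13), in R-2HG for Pola2 (-0.33) and Prim2 (-0.40), in IDH1mut against IDH1wt for Ccnd3 (-0.10) and E2f1 (0.0699), and in IDH1mut against R-2HG for Orc1 (-0.24), Mcm5 (-0.0386), Cdc45 (0.28) and Prim2 (0.52).

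The replicate numbers showed no sign of pairing the arrays. Deviations of same-numbered arrays of different groups correlated between -0.152 and 0.124 (median -0.00277, 18 pairs). Those of differently numbered arrays of different groups correlated between -0.181 and 0.174 (median 0.00454, 36 pairs). Correlations over all genes cannot exclude a processing step shared by arrays of the same number. A fit with the replicate block gave 12 calls for IDH1mut, 38 for R-2HG and 0 for IDH1wt against empty vector, 8 for IDH1mut against IDH1wt, 26 for IDH1mut against R-2HG and 42 by the F test. Groups of 3 arrays, centred values without a level, and a design with no scan date or source animal in the sources used here limit what these comparisons can show.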

Other observations

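Of the 52 genes, 9 (17.3%) lie on chromosome 5, against 6.24% of all genes measured, which is a description of a list chosen by function and was given no test. Across the lists, the share with an E2F match, of the genes with a promoter window, was 51.2% for the 52 genes, 40% for other replication genes, 33.3% for other G1/S regulators and 9.68% both for mitosis and G2/M and for MYC function and ribosome biogenesis. Of the genes with a window, CCAAT letters were found in 83.9% of the mitotic list, 62.8% of the 52 genes and 41.1% of all genes.

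The median SD over the 52 genes between the arrays of a group was 0.08 in IDH1mut, 0.09 in R-2HG, 0.08 in IDH1wt and 0.07 in empty vector.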
